A study of Homo sapiens with 6 samples.

Results

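Secreted protease inhibitors and the chemokine CCL2 were followed in SH-SY5Y cells, an established human neuroblastoma line with features of immature sympathetic neurons. The genes were TIMP1, TIMP2, TIMP3, TFPI2, SERPINF1, SERPINE2, SERPINB1, CST3 and CCL2, and their spots were found on the array by gene symbol. Of the 9 genes, 8 had a spot, with 2 spots each for TIMP1 and SERPINF1, which gave 10 spots of the 9169 tested. TIMP2 had no spot under its name and was not analysed here. Several of these genes were picked because of their difference between the groups, so those differences are given as a description. TIMP1, TFPI2, SERPINF1, SERPINE2 and CST3 encode secreted proteins, and TIMP3 is secreted and then held in the matrix. SERPINB1 belongs to the serpins that lack a classical secretion signal and act mainly inside cells, and SERPINF1 has the serpin fold but does not inhibit proteases, so the name of the set describes these genes only in part.

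The DN-TRF2 samples were SH-SY5Y cells carrying the pIRES2-EGFP vector with a dominant-negative form of TRF2, a telomere-binding protein of the shelterin complex. The GFP control samples were SH-SY5Y cells carrying the pEGF-C2 vector with no insert. Both groups were selected in 500 µg/ml geneticin, and RNA was taken on day 7 after transfection from independent experiments, with 3 samples per group and 1 array per sample. Vector backbone and insert differ together between the groups and cannot be told apart. The labels do not say whether the selected cells were single clones, and no spot carried TERF2, so that the dominant-negative protein could not be checked in these data.

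Metalloproteinases cut the proteins of the extracellular matrix and the surface of cells, and the tissue inhibitors of metalloproteinases, the TIMPs, block them by occupying the active site. Serine proteases such as plasmin, thrombin and elastase are restrained by serpins, which trap the enzyme in a covalent complex, and by Kunitz-type inhibitors, which plug the active site reversibly. Cystatins do the same for cysteine cathepsins. CCL2 recruits monocytes and is a common component, with TIMPs and serpins, of the mixture that senescent or damaged cells secrete.

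Median intensity on the 6 arrays ran from 480 to 712. Per-spot SDs were smaller among the DN-TRF2 arrays, with a median of 0.13 (log2), than among the GFP control arrays, with a median of 0.24, and 78.0% of spots had the larger SD in the controls. GFP control replicate 2 stood farthest from its group. The lowest of the 3 control values lay on that array at 6 of the 10 member spots and at 36.4% of all spots. Values below are log2 of the intensity plus 50, quantile-normalized. A difference is the DN-TRF2 mean minus the GFP control mean on that scale, with the standard error of limma's fit (n = 3 arrays per group). Levels were compared within a spot and not between spots or genes. No member value lay at the stand-in of 10 that marks spots without signal, and the lowest deposited intensity among them was 34.2. The cells were measured in bulk, where fewer cells of a type and less RNA per cell cannot be told apart.

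With limma's test and a Benjamini-Hochberg threshold of 0.05, 0 of the 9169 spots passed (0%), and so 0 of the 10 member spots did. The smallest adjusted p over all spots was 0.999, and 313 spots had an unadjusted p under 0.05, of which 212 were higher and 101 lower in DN-TRF2. The DN-TRF2 mean was above the GFP control mean at 6 of the 10 member spots, against 47.3% of all spots. The groups did not overlap at 6 member spots, against 8.70% of all spots. The 3 DN-TRF2 arrays lay wholly above the 3 GFP control arrays at 4 member spots, those of TIMP1, TFPI2 and CCL2, where 4.28% of all spots did so. They lay wholly below at 2 spots, both of SERPINF1, where 4.43% of all spots did so. In deposited intensity, before normalization, the groups were apart at 2 member spots, against 3.01% of all spots. Since the genes were picked partly on this contrast, nothing is read from these counts.

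**Figure D1:**
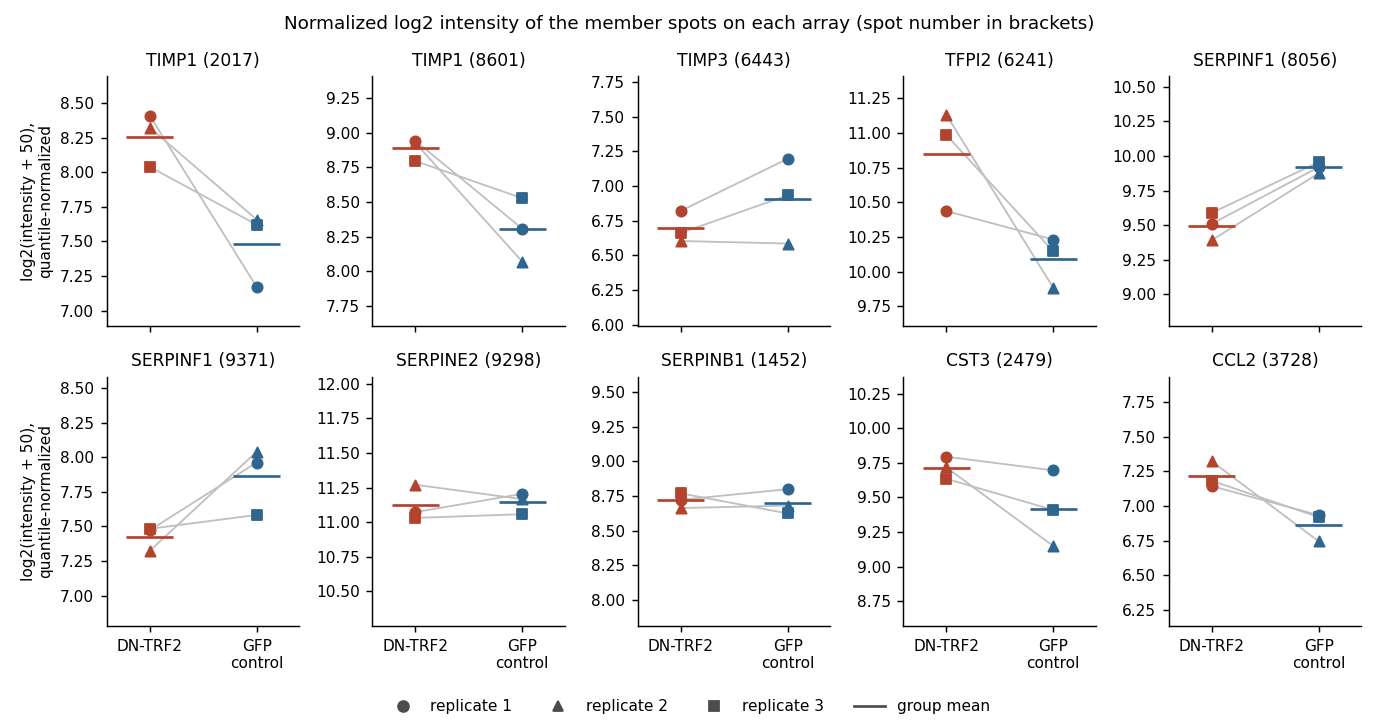
Normalized log2 intensity (vertical axis, each panel spanning the same range of log2 units) of the 10 member spots on the 3 DN-TRF2 arrays and the 3 GFP control arrays. Each point is 1 array, grey lines join arrays of the same replicate number and bars mark group means; the groups are apart at both TIMP1 spots, TFPI2, CCL2 and both SERPINF1 spots.

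TIMP1, a secreted inhibitor of most matrix metalloproteinases that also binds the tetraspanin CD63, was measured at 2 spots. At spot 2017 it stood at 8.41, 8.32 and 8.04 on the DN-TRF2 arrays, against 7.17, 7.66 and 7.62 on the GFP control arrays. The deposited intensities there were 259, 274 and 254 in DN-TRF2 samples, against 81, 127 and 184 in GFP control samples. Every DN-TRF2 array was above every control array on both scales, and GFP control replicate 1 was the lowest of all. The difference was 0.77 ± 0.18 (SE), a ratio of 1.71 on the offset scale, and ranked 10 from the top of the 9169 spots. At spot 8601 the values were 8.94, 8.93 and 8.80 in DN-TRF2, against 8.31, 8.07 and 8.53 in GFP controls, a difference of 0.59 ± 0.16. There the groups were again apart after normalization, but in deposited intensity the lowest DN-TRF2 array (395) was just under the highest control array (398).

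Both spots were of modest signal, at percentiles 21.4 and 34.7 of all spots. Within replicate numbers 1, 2 and 3 the DN-TRF2 array exceeded its control by 1.24, 0.66 and 0.42 at spot 2017 and by 0.63, 0.86 and 0.27 at spot 8601. Replicate 3 gave the smallest gap at both spots. Among the 1057 genes with exactly 2 spots, 6 were higher without overlap at both (0.568%), and these were TIMP1, S100A6, NCALD, PPARD, DHRS7 and WDFY3, listed here after their values were seen. The signs at the paired spots of a gene matched in 48.4% of those 1057 genes, no more often than unrelated signs would. As no spot passed the test, this share also covers genes without any difference, whose signs need not match. It cannot tell whether spots of a gene with a true difference go together. What 2 matching spots show was not tested.

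The promoters of TIMP1 and TFPI2, the genes of largest positive difference in the set, are shown with that of TIMP3, the family member of opposite sign. Each is the RefSeq sequence (GRCh38.p14) from 250 bases before to 50 bases after the annotated start, written 5′ to 3′ along the gene. Capitals mark matches, on either strand, to the GC box GGGCGG bound by Sp1 and to AP-1 motifs: the consensus TGANTCA, or the variant TGAGTAA, which was added after the sequences had been seen.
TIMP1 promoter, chrX:47582186-47582485, plus strand: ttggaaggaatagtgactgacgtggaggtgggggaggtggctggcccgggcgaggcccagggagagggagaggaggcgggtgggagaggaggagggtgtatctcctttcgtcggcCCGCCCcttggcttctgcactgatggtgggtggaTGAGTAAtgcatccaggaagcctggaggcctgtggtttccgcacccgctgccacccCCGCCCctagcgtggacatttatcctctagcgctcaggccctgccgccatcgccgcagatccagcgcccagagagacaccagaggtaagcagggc
TFPI2 promoter, chr7:93890704-93891003, minus strand: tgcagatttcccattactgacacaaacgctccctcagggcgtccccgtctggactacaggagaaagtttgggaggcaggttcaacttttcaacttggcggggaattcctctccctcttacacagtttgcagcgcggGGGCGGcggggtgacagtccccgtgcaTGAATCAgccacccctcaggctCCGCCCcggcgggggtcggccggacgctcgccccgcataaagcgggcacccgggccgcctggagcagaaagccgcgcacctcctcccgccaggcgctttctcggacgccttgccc
TIMP3 promoter, chr22:32801455-32801754, plus strand: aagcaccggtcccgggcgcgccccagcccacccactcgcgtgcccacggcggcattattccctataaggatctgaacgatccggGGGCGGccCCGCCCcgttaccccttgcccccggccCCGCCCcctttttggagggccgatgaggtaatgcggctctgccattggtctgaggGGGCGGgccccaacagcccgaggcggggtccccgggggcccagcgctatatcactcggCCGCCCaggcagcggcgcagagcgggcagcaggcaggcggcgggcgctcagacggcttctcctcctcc
TIMP1 held the AP-1 variant 101 bases before the start, and TFPI2 held an AP-1 consensus match 87 bases before it. TIMP3 had neither motif in the window. The promoters of CST3, a gene also higher in mean, SERPINB1 and SERPINE2 had neither of them as well, so AP-1 matches did not follow the direction of the difference throughout. Of 35116 promoters of this length, 7.71% held the consensus, 2.57% the variant and 45.0% a GC box. GC boxes were present in all 7 promoters found for 6 member genes, at 5 places in TIMP3 and 2 each in TIMP1 and TFPI2. The telomeric repeat unit TTAGGG, the sequence that TRF2 binds in tandem copies, and TATAAA were in none of the 7, against 9.05% and 11.5% of all promoters. GC content was 65.0% for TIMP1, 65.3% for TFPI2 and 72.7% for TIMP3, where the median of all promoters was 58.7%. A match describes the letters of the window and says nothing of binding in these cells. Promoters of SERPINF1 and CCL2 are named only.

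TIMP1 and TIMP3 each lie inside the span of a synapsin gene, SYN1 and SYN3, which encode proteins of synaptic vesicles. TIMP1 runs on the opposite strand to SYN1. Neither synapsin gene had a spot, so the host genes could not be set beside their guests.

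TIMP3, the inhibitor that stays bound to the matrix and also blocks the sheddases ADAM10 and ADAM17, went the other way in mean. Its spot 6443 stood at 6.82, 6.60 and 6.66 in DN-TRF2 samples, against 7.20, 6.59 and 6.93 in GFP controls. The groups overlapped, because GFP control replicate 2 was the lowest array of all. The difference was -0.21 ± 0.18, with a 95% interval of -0.61 to 0.19, at a signal in percentile 6.81. It came to -0.067 without GFP control replicate 1 and -0.38 without GFP control replicate 2, so its size rested on single control arrays. TIMP4, a further TIMP named by rule, had values of 10.63, 10.78 and 10.58 in DN-TRF2, against 11.08, 10.32 and 10.41 in GFP controls, with overlapping groups and a difference of 0.060 ± 0.21. The 3 measured TIMPs thus had means that differed by between -0.21 and 0.77.

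TFPI2 encodes a Kunitz-type inhibitor of plasmin, trypsin and the tissue factor and factor VIIa complex that is deposited in the matrix. Its spot 6241 stood at 10.44, 11.13 and 10.99 on the DN-TRF2 arrays, against 10.23, 9.88 and 10.15 on the GFP control arrays. DN-TRF2 replicate 1 lay just 0.21 above the highest control, and the other DN-TRF2 arrays lay well clear. Deposited intensities were 1202, 2145 and 2199 in DN-TRF2 samples, against 961, 857 and 1314 in GFP control samples, and overlapped on that scale. The difference was 0.76 ± 0.20, rank 12 from the top, at a signal in percentile 74.3. By replicate number it was 0.21, 1.25 and 0.84, a wide scatter. Leaving out DN-TRF2 replicate 2 gave 0.62 and leaving out replicate 1 gave 0.97. TFPI, its relative that shuts off the start of coagulation, stood at 7.55, 7.74 and 7.51 in DN-TRF2, against 7.28, 8.05 and 7.43 in GFP controls, a difference of 0.012 ± 0.20. The groups overlapped fully for TFPI, and for F3, which encodes tissue factor, the difference was 0.10 ± 0.17.

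SERPINF1 encodes pigment epithelium-derived factor, a serpin known for neurotrophic effects and for blocking blood vessel growth. It was the member lower in DN-TRF2 at 2 spots. Spot 8056 stood at 9.51, 9.39 and 9.59 in DN-TRF2 samples, against 9.92, 9.87 and 9.96 in GFP controls. The control arrays were tightly grouped, with an SD of 0.040, and all lay above the DN-TRF2 arrays. The difference was -0.42 ± 0.14, and by replicate number it was -0.41, -0.48 and -0.37, the most even of the 6 spots without overlap. Spot 9371, a dimmer one in percentile 17.7, stood at 7.47, 7.32 and 7.48 in DN-TRF2, against 7.96, 8.04 and 7.58 in GFP controls, a difference of -0.43 ± 0.16. GFP control replicate 3 came within 0.10 of the nearest DN-TRF2 array there. In deposited intensity the groups overlapped at spot 8056 but not at spot 9371, where DN-TRF2 samples had 118, 114 and 155 and GFP control samples 167, 185 and 177. Of the 1057 genes with 2 spots, 3 were lower without overlap at both (0.284%), namely SERPINF1, PIMREG and SLC4A2, again listed after their values were seen.

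SERPINE2 encodes protease nexin-1, an inhibitor of thrombin, urokinase and plasmin that promotes neurite outgrowth in cultured neuroblastoma cells. At its spot 9298, in percentile 86.1, it stood at 11.07, 11.27 and 11.03 in DN-TRF2, against 11.20, 11.17 and 11.06 in GFP controls. The groups were interleaved. The difference was -0.018 ± 0.14, with a 95% interval of -0.33 to 0.30, and changes within that interval are not excluded with 3 arrays per group. Its sign was set by single arrays: leaving out DN-TRF2 replicate 3 gave 0.030 and leaving out replicate 2 gave -0.093.

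SERPINB1, an inhibitor of neutrophil elastase, cathepsin G and proteinase 3, had 8.72, 8.66 and 8.77 in DN-TRF2 samples at spot 1452, against 8.80, 8.68 and 8.62 in GFP control samples. These values overlapped throughout, with a difference of 0.017 ± 0.14 and a 95% interval of -0.29 to 0.32. Left-out arrays moved it between -0.022 and 0.066. The SDs of 0.053 in DN-TRF2 and 0.089 in GFP controls were below the medians of all spots in those groups.

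CST3 encodes cystatin C, the main secreted inhibitor of cysteine cathepsins. Its spot 2479 stood at 9.79, 9.72 and 9.64 in DN-TRF2, against 9.70, 9.15 and 9.41 in GFP controls. The groups overlapped by 1 array, as GFP control replicate 1 exceeded DN-TRF2 replicate 3. The difference was 0.30 ± 0.17, with a 95% interval of -0.079 to 0.67, and it was 0.16 without GFP control replicate 2. Each DN-TRF2 array was above its control of the same number, by 0.099, 0.57 and 0.22.

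CCL2, the chemokine ligand that draws monocytes through the receptor CCR2, had a dim spot, 3728, in percentile 9.03. It stood at 7.14, 7.32 and 7.18 on the DN-TRF2 arrays, against 6.93, 6.74 and 6.92 on the GFP control arrays. All DN-TRF2 arrays were higher, with a gap of 0.21 between the groups. In deposited intensity the values were 85.6, 113 and 114 in DN-TRF2 samples, against 61.3, 42.9 and 88.7 in GFP control samples, where the groups overlapped. The difference was 0.35 ± 0.14. It depended on the offset because the intensities were of the order of the offset itself: it was 0.56 at an offset of 1 and 0.25 at an offset of 100. By replicate number it was 0.21, 0.58 and 0.26.

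In order of difference the genes ran from TFPI2 and TIMP1 through CCL2 and CST3 to SERPINB1, SERPINE2, TIMP3 and SERPINF1. The steps between neighbours were smaller than the combined standard error of the pair, except those from TIMP1 to CCL2 (0.33 against 0.23) and from CST3 to SERPINB1 (0.28 against 0.22), and no step was tested. The direction was the same at all 3 replicate numbers at 7 member spots, against 25.8% of all spots. DN-TRF2 was higher each time at the 5 spots of TIMP1, TFPI2, CST3 and CCL2, as at 1012 of the 9169 spots, and lower each time at both SERPINF1 spots, as at 1351 of them. With the replicate number as a block the adjusted p of limma's fit was 0.521 and 0.572 for TIMP1, 0.561 for TFPI2, 0.735 and 0.779 for SERPINF1 and 0.843 for CCL2, and 0 of the 10 spots passed. The larger SD was in the GFP controls at 7 of the 10 member spots, near the 78.0% of all spots; the exceptions were TFPI2, SERPINE2 and SERPINF1 at spot 8056.

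**Figure D2:**
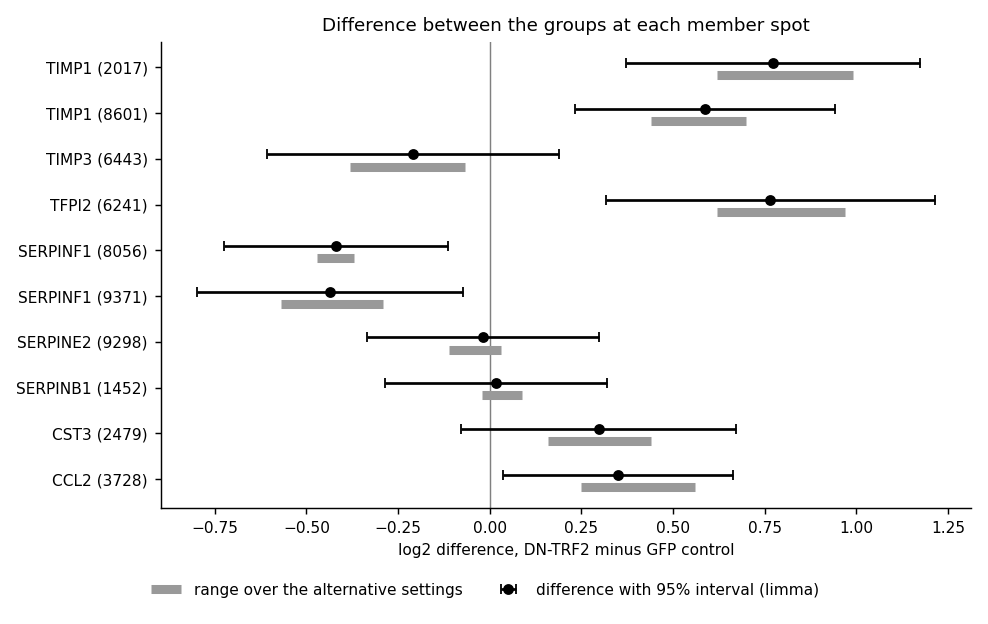
Difference between the groups (horizontal axis, log2, DN-TRF2 minus GFP control) at each member spot, with limma's unadjusted 95% interval as black bars and the range over all alternative settings and left-out arrays as grey bars. TIMP1, TFPI2, CST3 and CCL2 stayed above 0 and SERPINF1 and TIMP3 below 0 in every setting run, whereas the grey bars of SERPINE2 and SERPINB1 cross 0.

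**Figure D3:**
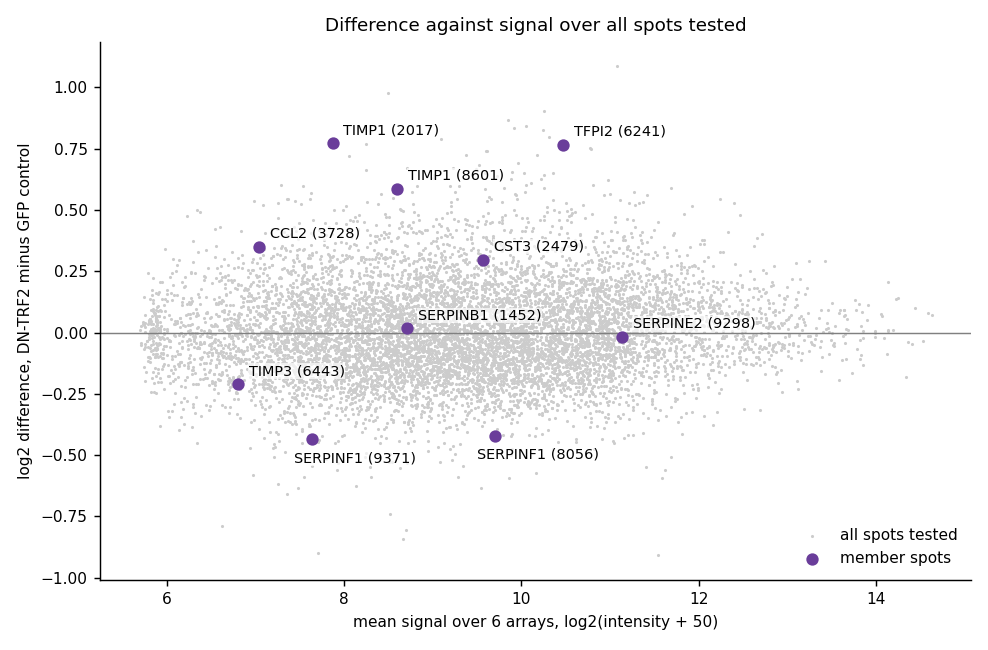
Difference between the groups (vertical axis, log2) against mean signal over the 6 arrays (horizontal axis, log2 of intensity plus 50) for all 9169 spots in grey and the 10 member spots in purple. TIMP1 at spot 2017 and TFPI2 lie at the upper edge of the cloud, at ranks 10 and 12 from the top, and SERPINE2 and SERPINB1 lie in its middle.

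Related lists are given as counts over genes, and apart from the other serpins the median of each changed sign in at least 1 of 22 alternative settings. Of 9 measured metalloproteinases, the proteases that TIMPs restrain, 3 were higher in DN-TRF2 by their mean and 6 were lower. With TIMP4 and CD63, which are no proteases, 11 of the 49 genes of that list had a spot, 5 higher and 6 lower, with a median difference of -0.00080, and 0 passed. The median over all 6255 named genes was -0.0067, with 48.0% higher. MMP2 and MMP9, the gelatinases that cut basement membrane collagen, differed by 0.016 ± 0.20 and -0.00080 ± 0.21 with overlapping groups. At the ends of the list were MMP28, an epidermal metalloproteinase, at a mean of -0.32 over 2 spots, and CD63, the surface partner of TIMP1, at 0.20 over 2 spots. RECK, MMP14, ADAM10 and ADAM17 had no spot.

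Other serpins lay mostly on the lower side, with 8 of 10 measured genes lower, a median of -0.072 and 0 passing. SERPINA3, an acute-phase inhibitor of cathepsin G and chymotrypsin, had the lowest mean at -0.28 over 2 spots, and SERPINA5, the protein C inhibitor, stood at -0.25. SERPINB9, the granzyme B inhibitor, had the highest at 0.042. The mean of SERPINF1 over its 2 spots, -0.43, was beyond the range of the gene means of these other serpins, in a gene picked for its difference. Kunitz, Kazal, WAP and other inhibitors had 5 of 12 genes higher, a median of -0.057 and 0 passing, but 8 of 12 higher and a median of 0.048 with array weights. SPARC, a matrix protein of stroma with a Kazal-like domain, stood highest at 0.17 over 2 spots. The amyloid precursor genes APP and APLP2, which carry Kunitz domains in some forms, stood lowest at -0.20 and -0.19.

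The list of serine proteases of coagulation, fibrinolysis and granules had 8 of 22 measured genes higher, a median of -0.028 and 0 passing. It also holds receptors and cofactors that are no proteases, of which F3, PLAUR and PROCR were higher and F2R and PROS1 lower. Without GFP control replicate 2 the count and median of the list came to 13 of 22 and 0.052. PLAU, which encodes urokinase, differed by -0.071 ± 0.14, and its receptor gene PLAUR by 0.079 ± 0.25. PLAT, which encodes tissue plasminogen activator, had 4 spots that disagreed, at 0.26 ± 0.16, -0.20 ± 0.21, 0.18 ± 0.18 and 0.094 ± 0.16. FURIN, a proprotein convertase, was lowest at -0.32 and KLK10, a kallikrein, highest at 0.18.

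Genes around cystatin C ran from -0.24 to 0.52. Of 11 measured cystatins and their target proteases 7 were higher, with a median of 0.035, and 0 passed. Without GFP control replicate 1 they came to 4 of 11 and -0.075. CTSL, a lysosomal cathepsin, stood at 8.94, 9.0 and 9.19 in DN-TRF2, against 8.44, 8.53 and 8.59 in GFP controls, without overlap and with a difference of 0.52 ± 0.14. CTSB stood at 9.16, 8.83 and 9.11 in DN-TRF2, against 8.54, 8.24 and 8.85 in GFP controls, with overlap and a difference of 0.49 ± 0.19. CTSS, the cathepsin of antigen-presenting cells, differed by 0.035 ± 0.21. The intracellular cystatin CSTB was lower at both spots, by -0.35 ± 0.15 without overlap and -0.14 ± 0.20 with it, and CSTA by -0.18 ± 0.18. The limma adjusted p was 0.999 or above for each of these spots.

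Chemokines and their receptors divided evenly, with 7 of 14 measured genes higher, a median of 0.013 and 0 passing. CXCL1 and CXCL13, ligands that attract neutrophils and B cells, stood highest at 0.54 and 0.41. CXCL14 and the interferon-induced CXCL10 stood lowest at -0.30 and -0.26. CCR2, the receptor of CCL2, and the related chemokine gene CCL7 had no spot. In the list of NF-kB and cytokine genes, 9 of 21 were higher, with a median of -0.018 and 0 passing. Not all of these act upstream of CCL2, as the list also holds target genes such as ICAM1, VCAM1, SOD2 and PTGS2. NFKBIA, the NF-kB inhibitor that NF-kB itself induces, differed by 0.20 ± 0.19 and 0.17 ± 0.16 at its 2 spots with overlapping groups. IRAK1, a kinase of the interleukin-1 receptor, stood highest at 0.49 and the TNF receptor gene TNFRSF1A lowest at -0.35.

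**Figure D4:**
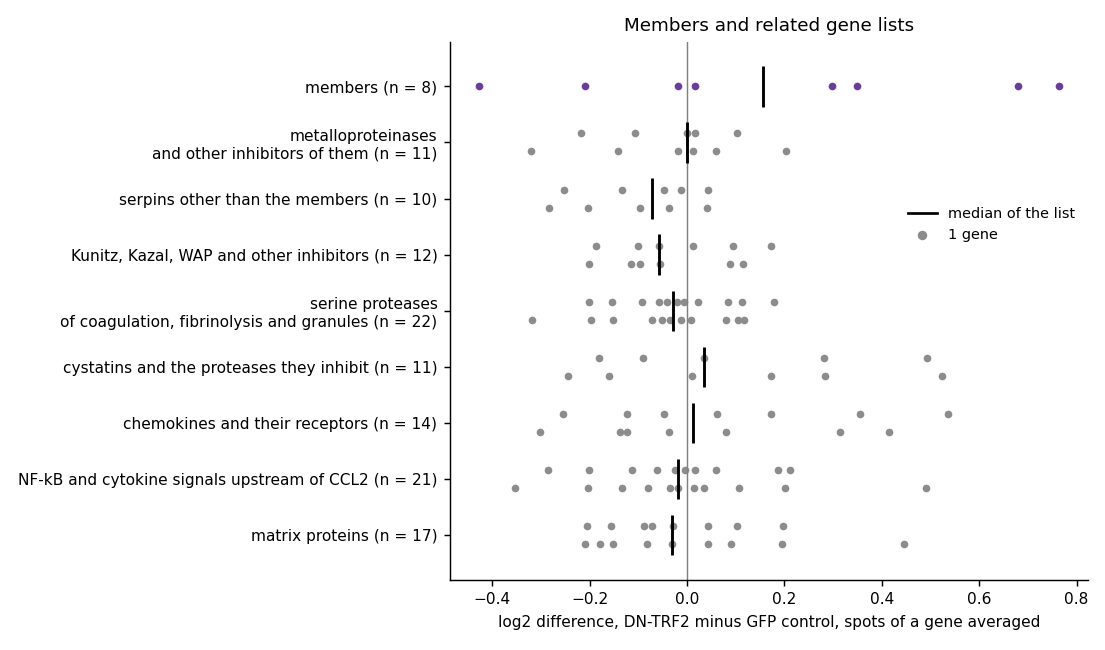
Difference between the groups (horizontal axis, log2, DN-TRF2 minus GFP control, spots of a gene averaged) for the 8 member genes and for 8 related lists. Each point is 1 gene and the black bars are list medians, which lie between -0.072 for other serpins and 0.035 for cystatins and their targets, with 0.16 for the members, which were picked partly on this contrast.

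Matrix proteins had 7 of 17 measured genes higher, a median of -0.031 and 0 passing, with LUM, a stromal proteoglycan, highest at 0.45 and COL5A1, a fibrillar collagen, and IGFBP7 lowest at -0.21 each. Markers of other cell types were read beside the members. Fibroblast and stroma markers had spots for 6 of 13 genes, 5 of them higher in DN-TRF2, and their summed normalized intensity ran from 31640 to 34909 on the DN-TRF2 arrays and from 28311 to 32245 on the GFP control arrays. Schwann and glial markers had spots for 5 of 9 genes, all 5 higher in mean, with sums of 5013 to 5353 in DN-TRF2 and 4169 to 5214 in GFP controls. Macrophage and blood markers had spots for 7 of 17 genes, 3 of them higher, with sums of 4693 to 6723 in DN-TRF2 and 5851 to 6523 in GFP controls. Spots equal to the stand-in on all arrays had been left out beforehand, so these 3 lists could not show them. The sums overlapped between the groups in each list. The part of such cells in the values of TIMP1, TFPI2 and CCL2 was not tested. Of 20 sympathoadrenal markers of the labelled cell type 11 had a spot, including DBH, CHGA, GATA3 and MYCN but not TH. Their sums of 29379 to 31422 in DN-TRF2 and 29548 to 31390 in GFP controls covered nearly the same range. Of their 22 spots, 17 were above median signal, while 2 were in the dimmest quartile and 1, of RET, was at or under the stand-in on all arrays. Above median signal were also 5 of 7 fibroblast and stroma spots, 4 of 7 macrophage and blood spots and 2 of 6 Schwann and glial spots. Levels were not compared between genes, so these shares cannot tell the labelled cell type from the others.

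Spots whose pattern over the 6 arrays was most like that of a member were sought among 4154 named spots of above-median signal, with Pearson's r as the measure of likeness and no test. For TIMP1, with its spots averaged, they were NCALD (0.98), a neuronal calcium sensor, H19 (0.977), an imprinted non-coding RNA, and PLD4 (0.973). For TFPI2 they were 1 spot of TERF2IP (0.945), which encodes the TRF2 partner RAP1, the stress-induced regulator gene NUPR1 (0.943) and STX8 (0.94), an endosomal syntaxin. STX8 (0.97) and NUPR1 (0.969) were also the nearest to CCL2, followed by 1 spot of GATA3 (0.956), a sympathoadrenal transcription factor. For SERPINF1 they were PA2G4 (0.976), a growth regulator, MYL12A (0.974), a myosin light chain, and KCNS3 (0.96), a potassium channel subunit. With 6 arrays many spots reach such values: r was over 0.9 at 27 spots for TIMP1, 9 for TFPI2, 18 for SERPINF1 and 17 for CCL2.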

How the data were processed

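The authors deposited 1 table of linear spot intensity values for 6 arrays; per the labels' protocols, total RNA was copied into radioactive cDNA, which was hybridized alone to each cDNA array. The sources used here do not name the image software, the background treatment or any scaling. Of 9600 spots, 384 blank positions (1 in every 25) and 47 further spots at the stand-in value of 10 on all arrays were left out. Spot names come from the platform's annotation, brought to current symbols through gene IDs in the GRCh38.p14 table; 8451 spots had 1 symbol, 21 several and 697 none listed. An offset of 50 was added, log2 taken and arrays quantile-normalized, so that differences of dim spots are understated. The test was limma 3.58.1 (R 4.3.3, lmFit and eBayes at each spot, two-sided, Benjamini-Hochberg over all spots, threshold 0.05). The fit was tested on simulated data with changes larger than at any member spot and equal spread in both groups. Its power for changes of the size seen here was not tested. The median half-width of limma's 95% interval was 0.38; the number of arrays and the spread among the control arrays limit the precision.

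The members and lists were chosen with earlier results of these data known. Named genes are all member spots, partner genes fixed by name and, per list, up to 2 genes at each end; lists count genes with spots averaged. Replicate numbers come from the sample titles. Arrays of the same number deviated together from their group means (r of 0.39, 0.296 and 0.246 across spots), which was taken as pairing. The main fit did not include the replicate number, so its standard errors, intervals and p-values leave this pairing out. Only the replicate block, run as an alternative, took it into account. The labels name independent experiments, and p-values set the group difference against the spread between these samples. Alternatives were other offsets and normalizations, filters on dim spots, a position correction, array weights, the replicate block and leaving out each array.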

Additional observations from a re-analysis of the deposited data

How the results depend on the processing

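The count of spots passing limma's adjusted p was 0 in all settings run except an offset of 1, where 1 spot passed (BOP1, no member, smallest adjusted p 0.034). With the replicate block 0 passed (smallest adjusted p 0.269; 527 spots at an unadjusted p under 0.05), and the block changed no other call. With each array left out in turn 0 passed, and between 141 spots, without DN-TRF2 replicate 2, and 792 spots, without GFP control replicate 2, had an unadjusted p under 0.05. The DN-TRF2 mean was higher at 6 of 10 member spots, at 5 to 7 with 1 array left out, and at 2 of the 4 spots left without the spots below median signal. That filter removed both TIMP1 spots, CCL2, TIMP3, SERPINB1 and SERPINF1 spot 9371, so that those differences rest on dim spots. No difference at the spots of TIMP1, TFPI2, SERPINF1, CST3, CCL2 or TIMP3 changed sign. SERPINE2 turned positive in 3 and SERPINB1 negative in 2 of the fits with 1 array left out. Between offsets of 100 and 1 the difference ran from 0.25 to 0.56 for CCL2, from 0.63 to 0.99 for TIMP1 spot 2017 and from -0.15 to -0.35 for TIMP3. TIMP1 ranged from 0.62 to 0.99 at spot 2017 and from 0.44, with array weights, to 0.70 at spot 8601. In each related list 0 genes passed in every setting. The settings include the replicate block and a fit without limma's sharing of variance between spots. Both leave each difference as in the main fit, so they could not turn a list median. List medians kept their sign for the other serpins (-0.18 to -0.027) and turned in 1 to 5 of 22 settings for the others, whose medians ran from -0.11 to 0.023 (metalloproteinases), -0.12 to 0.048 (Kunitz and others), -0.070 to 0.052 (serine proteases), -0.075 to 0.22 (cystatins), -0.0087 to 0.13 (chemokines), -0.054 to 0.021 (NF-kB) and -0.078 to 0.024 (matrix). The share of higher spots over all spots was 47.3%, 42.3% with median scaling and 54.4% without normalization between arrays.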
